A study of Caenorhabditis elegans with 14 samples.

Results

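The replication-dependent histone genes of the nematode Caenorhabditis elegans were examined in RNA sequencing data from early embryos of 4 genotypes. They were taken as the genes whose symbols run from his-1 to his-68, without his-24, which encodes a linker histone. Of the 67 symbols in that range, 64 were found among the 20392 genes of the count table. These were 17 H2A, 17 H2B, 14 H3 and 16 H4 genes. The symbols his-23 and his-36 were not in the reference gene table, and his-40 was not among the rows of the count table. Wild-type embryos were of the N2 strain (n = 3). The hpl-2 mutant (n = 4) lacked part of hpl-2, a gene for an HP1 protein of heterochromatin, through the deletion tm1489. The hpl-2-FFAA strain (n = 4) had px112, another allele of hpl-2. The double mutant, met-2 hpl-2 (n = 3), had met-2(n4256), an allele of an H3 lysine 9 methyltransferase gene, together with hpl-2(tm1489) on chromosome III, and was kept over the hT2 balancer of chromosomes I and III. Whether its embryos were separated from balanced ones is not stated in the labels. The source and cell type fields of the labels name yeast, whereas the stage field and growth protocol name worm embryos and the count table lists C. elegans genes. The treatment label gives 20 °C for all samples, although the extraction protocol names wild type alone and mentions exposure to other temperatures. Libraries were made from total RNA after removal of ribosomal RNA, so that transcripts without a poly(A) tail were kept.

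Core histones form the protein spool of the nucleosome, in which H3 and H4 make the centre and dimers of H2A and H2B complete it. Their replication-dependent genes supply new histones in S phase. The transcripts of these genes end, in animals generally, in a stem-loop bound by the stem-loop binding protein instead of a poly(A) tail. In C. elegans the genes lie in clusters, mostly as pairs transcribed away from each other from a shared intergenic region. Early embryos divide rapidly and are loaded with maternal RNA.

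Library totals were 5332725 to 6390870 counts in the first 3 groups and 14313366 to 14840992 in met-2 hpl-2. Depth and the met-2 hpl-2 genotype cannot be told apart here. Transcripts of hpl-2 stood at 89.7 to 100 CPM, counts scaled to a common library total with TMM factors, in wild type. Their range was 3.7 to 5.36 CPM after the deletion alone, 8.58 to 11.1 CPM in the double mutant and 63.5 to 70.3 CPM in hpl-2-FFAA. Transcripts of met-2 stood at 27.7 to 31.3 CPM in met-2 hpl-2 and at 260 to 297 CPM in the other libraries. All 10 markers of oocytes and maternal RNA passed the filter on low counts. The lists of yolk protein genes, marking adult intestine, and of sperm genes summed to at most 4.91 and 7.37 CPM in any library, and msp-77 was at 0 in all. The list of 11 markers of late embryos and larvae summed to 283 to 398 CPM in met-2 hpl-2. It summed to 49.6 to 58.7 CPM in wild type, 30.5 to 65.8 CPM in hpl-2 and 29.5 to 103 CPM in hpl-2-FFAA libraries. Within hpl-2-FFAA, replicates 1 and 2 stood apart from replicates 3 and 4.

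Reads fell on few of the histone gene copies. Of the 64 genes, 30 had no count in any of the 14 libraries. These were his-9, his-10, his-12, his-13, his-14, his-15, his-19, his-20, his-21, his-22, his-26, his-27, his-28, his-29, his-30, his-33, his-34, his-43, his-44, his-46, his-49, his-50, his-51, his-52, his-53, his-54, his-56, his-57, his-65 and his-66. A count of 0 allows up to 3 counts, or 0.217 to 0.558 CPM depending on the library, counting error only. A further 9 (his-11, his-16, his-25, his-39, his-42, his-45, his-47, his-55 and his-58) had at most 31 counts in a library and did not pass the filter on low counts. The remaining 25 were tested: 5 H2A, 5 H2B, 6 H3 and 9 H4 genes. All 30 genes without counts were among the 36 that share a symbol with other histone genes in the Ensembl annotation, and none of those 36 was tested. The 36 together held 0.0107% of histone counts. Near-identical copies cannot be told apart by short reads, and the sources used here do not give how the authors' counting treated reads that match several copies. A level of 0 here therefore describes the table, and sums over each core type are given beside the single genes. These sums join any reads that were split among copies, but they miss any reads left out for matching several copies. With 0.0107% of histone counts on the 36, the sums add almost nothing from those copies. A member passed the filter only where some group had enough counts, so the 25 do not stand for all 64.

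One gene of each core type took the largest part of that type's counts, and these 4 genes lie side by side on chromosome IV. In wild type his-62 held 79.4% ± 0.0948 of H2B counts and his-59 held 66.7% ± 0.438 of H3 counts (SD, n = 3). The H2A gene his-61 held 57.8% ± 0.118 and the H4 gene his-60 held 47.7% ± 0.266 of their types. This cluster, at chromosome IV 7485834 to 7488659 of the WBcel235 assembly, held 63.1% ± 0.286 of all histone counts in wild type. Its share was 63.6% ± 0.493 in hpl-2 embryos and 62.6% ± 1.32 in those of hpl-2-FFAA (n = 4 each). In the double mutant it was 57.9% ± 0.168 (n = 3). The 64 genes fall into 12 clusters when genes less than 20 kb apart are joined. One cluster of 6 genes on chromosome V, his-49 to his-54, had no count at all. Another of 13 genes on chromosome II held 0.00995% ± 0.00245 of histone counts in wild type.

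Per kilobase of annotated width, the order of levels in wild type was his-59 (6374 ± 71.1 CPM per kb), his-60 (5776 ± 160) and his-62 (5680 ± 47.1), of which the last pair did not differ beyond their spread. The second H4 gene was his-64 (2684 ± 167 CPM per kb), the second H3 gene his-32 (2326 ± 36.8), the second H2A gene his-3 (1844 ± 35.4) after his-61 (2083 ± 45.2), and the second H2B gene his-4 (1283 ± 14.5). Among the 25 tested genes, those at the other end were the H4 gene his-5 at 15.2 ± 1.58 and the H2A gene his-35 at 26.3 ± 1.04 CPM per kb. The width goes beyond the coding length by 492 bases in his-61 and by 0 in his-1. Near-identical coding stretches may not all have been countable. This order therefore ranks counts over width and need not be that of transcript amounts.

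Summed over the 64 genes, histone counts were 1.73-fold higher in met-2 hpl-2 than in wild type after scaling. The 36 genes with shared symbols held 0.0107% of histone counts, so this sum over all copies rests almost wholly on the 25 tested genes. The sum stood at 20493, 20161 and 19968 CPM in wild type and at 32251, 34708 and 37667 CPM in met-2 hpl-2. Every met-2 hpl-2 library lay above every wild-type library. The log2 difference was 0.79 (SE 0.0556, adjusted p = 2.21e-09). Unless given for DESeq2, every adjusted p here comes from the quasi-likelihood test of edgeR, adjusted by Benjamini-Hochberg over all genes tested. For a sum, the sums stood in place of the histone genes in that adjustment. A gene or sum is called where its adjusted p is under 0.05. As a share of the library, histone counts made up 2.01 to 2.07% in wild type and 3.1 to 3.51% in met-2 hpl-2. In bulk embryos, more cells that make histone RNA and more such RNA per cell cannot be told apart. The markers of late embryos and larvae moved with this result, with 7 of 8 tested members higher in met-2 hpl-2, against 28.7% of all tested genes. The maternal markers summed to 7090 to 7410 CPM in met-2 hpl-2 and 7120 to 7320 CPM in wild type, with 2 higher and 2 lower. For the early zygotic markers the sums were 593 to 655 CPM and 607 to 638 CPM in the same order, with 3 higher and 5 lower. Of all tested genes 29.4% were lower. The part of these lists in the result was not tested.

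All 4 core types rose in met-2 hpl-2. Summed H2A rose from 3158 ± 64.6 to 6033 ± 586 CPM (log2 0.93, SE 0.0621, adjusted p = 9.56e-10). Values after ± are SD, here and below, with n = 3 in wild type and in met-2 hpl-2. Summed H2B rose from 4569 ± 36.1 to 7620 ± 660 CPM (log2 0.74, SE 0.05, adjusted p = 1.24e-09). For H3 the sum went from 7102 ± 41.6 to 12130 ± 767 CPM (log2 0.77, SE 0.0628, adjusted p = 1.29e-08), and for H4 from 5377 ± 179 to 9089 ± 713 CPM (log2 0.76, SE 0.0576, adjusted p = 6.06e-09). In none of the types did a met-2 hpl-2 library overlap wild type. Without the leading copy of each type, an alternative chosen after seeing the data, the log2 differences were 0.785 (SE 0.0744) for H2A, 1.13 (SE 0.0682) for H2B, 1.13 (SE 0.101) for H3 and 0.863 (SE 0.0595) for H4. No test was made of a difference between the types.

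**Figure D1:**
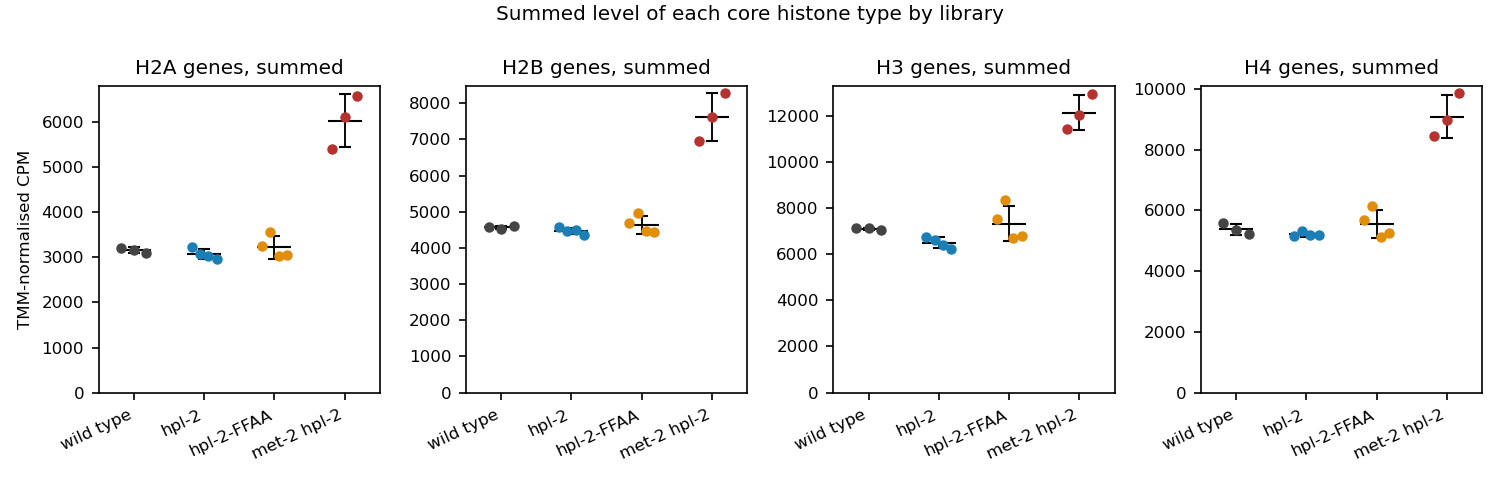
Summed level of each core histone type in each library, as TMM-normalised CPM on axes that start at 0, with 1 point per library and bars for the mean and SD of each genotype. The met-2 hpl-2 libraries lie above all others in every type, and the first 2 hpl-2-FFAA libraries lie above the other 2.

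The rise in met-2 hpl-2 was uneven between genes. Of the 25 tested genes, 23 rose and 0 fell, where 28.7% of all 9498 tested genes rose, 29.4% fell and 58.1% changed in either direction. Groups did not overlap for these 23 genes, against 67.0% of all tested genes. The median log2 difference was 0.71 over the 25 genes and -0.0036 over all tested genes. At least a 2-fold rise was seen in 10 of the 25, against 9.08% of all tested genes. By type, 4 of 5 H2A, 5 of 5 H2B, 6 of 6 H3 and 8 of 9 H4 genes rose. The exceptions were his-35 and his-37.

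**Figure D2:**
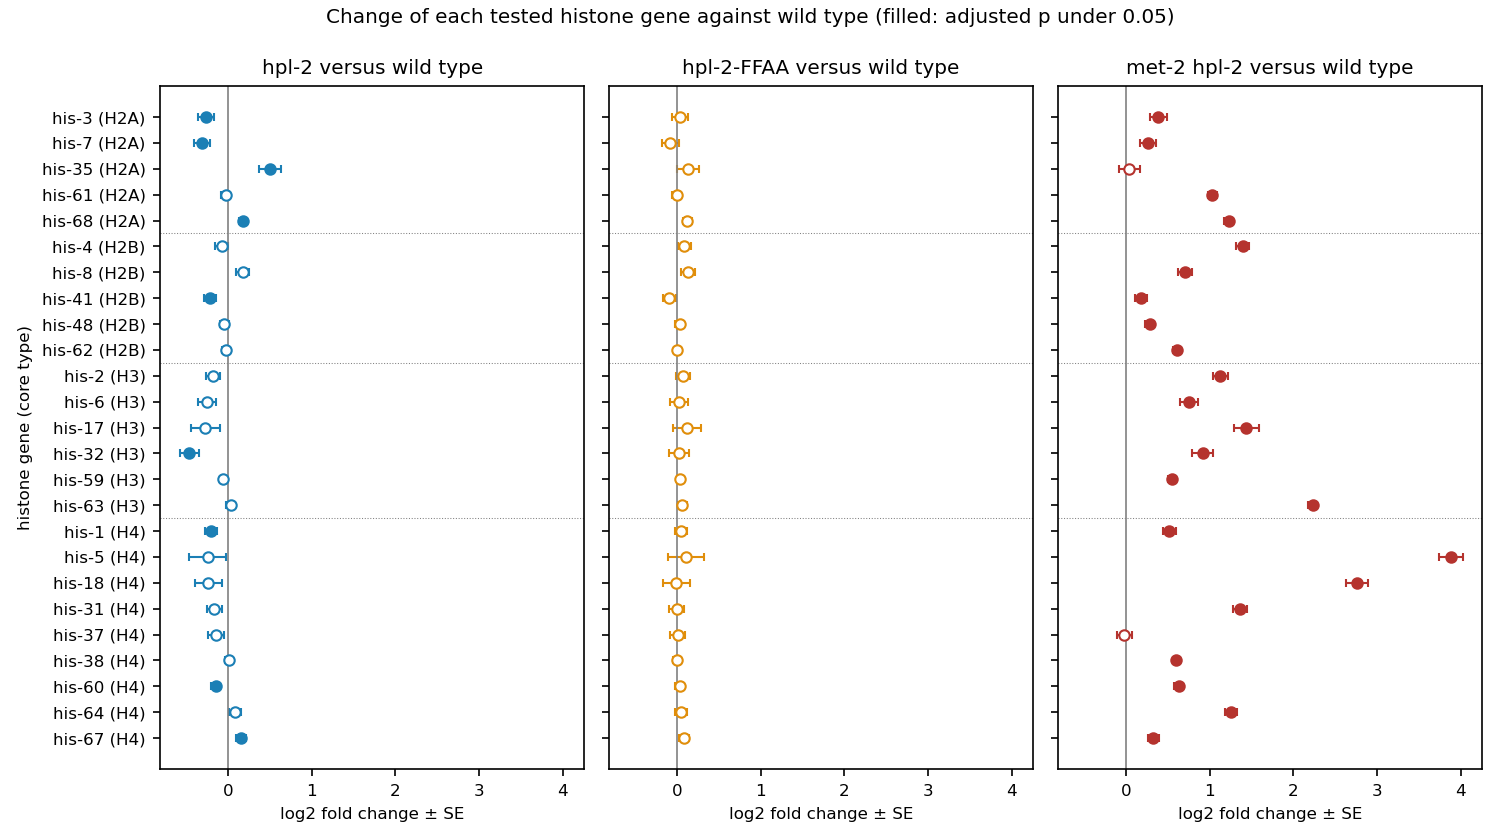
Log2 fold change against wild type, with its SE, of the 25 tested histone genes grouped by core type, in 1 panel per mutant, with filled points for an adjusted p under 0.05. In met-2 hpl-2, 23 points are filled and all of them lie to the right of 0, from 0.18 for his-41 to 3.88 for his-5, while no point is filled for hpl-2-FFAA.

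Among the H4 genes the largest changes were in copies of low level, although his-37, also low at 40.3 CPM in wild type, was not called. Over the 25 tested genes the rank correlation of the log2 difference with the wild-type level was -0.03. The Pearson correlation with the log2 of that level was -0.356. The gene his-5 (chromosome V, 8535214 to 8535525, plus strand, 1 exon) stood at 5.09, 5.90 and 6.26 CPM in wild type and at 80.1, 86.5 and 88.7 CPM in met-2 hpl-2. It also stood at 3.22 to 6.70 CPM in the hpl-2 mutant and 4.73 to 8.74 CPM in hpl-2-FFAA, so only the met-2 hpl-2 libraries were high. The difference from wild type was 14.7-fold (log2 3.88, SE 0.143, adjusted p = 2.36e-13).

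The H4 gene his-18 (chromosome V, 8898228 to 8898539, plus strand) stood at 14 to 16 CPM in wild type. In met-2 hpl-2 it stood at 90.9, 97.5 and 111.1 CPM, well clear of wild type (log2 2.76, SE 0.126, adjusted p = 4.43e-12). The H4 gene his-31 went from 59.2 to 73.1 CPM up to 164 to 173 CPM, again without overlap (log2 1.36, SE 0.0831, adjusted p = 3.18e-10). The more abundant his-64 stood at 995 to 1127 CPM in wild type and 2328, 2539 and 2769 CPM in met-2 hpl-2 (log2 1.26, SE 0.0739). The leading H4 gene, his-60, rose less, by 0.63 (SE 0.0577) on the log2 scale, and his-38, the one member on chromosome X in the count table, by 0.60 (SE 0.0442). The smallest called changes of H4 genes were those of his-1, at 0.52 (SE 0.0764), and his-67, at 0.33 (SE 0.0632).

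All 6 tested H3 genes rose. The gene his-63 (chromosome IV, 11406451 to 11406861, minus strand) stood at 183.9, 180.2 and 174.2 CPM in wild type and at 824.7, 841.3 and 866.2 CPM in met-2 hpl-2. Its groups were tight and lay far apart (log2 2.23, SE 0.0542, adjusted p = 4.06e-16). The remaining H3 genes followed in the order his-17 at log2 1.44 (SE 0.148), his-2 at 1.13 (SE 0.0857), his-32 at 0.92 (SE 0.123), his-6 at 0.76 (SE 0.108) and his-59 at 0.55 (SE 0.0481). The leading copy his-59 therefore rose least, and its share of H3 counts went from 66.7% to 57.2% ± 0.113.

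Of the H2B genes, his-4 (chromosome V, 16040144 to 16040515, minus strand) rose most, from 612.3, 609 and 622.3 CPM to 1471, 1608 and 1774 CPM (log2 1.40, SE 0.0774, adjusted p = 8.08e-11). A non-coding RNA is annotated opposite his-4, and another opposite his-8. The leading H2B gene his-62 rose by 0.61 (SE 0.0477) on the log2 scale, his-8 by 0.71 (SE 0.0835) and his-48 by 0.28 (SE 0.0571). The smallest called change was that of his-41 at 0.18 (SE 0.0718, adjusted p = 0.0408). It did not pass when wild-type replicate 1, 2 or 3 was left out, nor without met-2 hpl-2 replicate 2 or 3, with an adjusted p of up to 0.205. It was also lost when scaled by library size alone (adjusted p = 0.273), with no low-count filter (0.144) and in DESeq2 (0.119).

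Of the H2A genes, his-68 rose from 547.5, 550.3 and 522.5 CPM to 1152, 1280 and 1365 CPM (log2 1.23, SE 0.054, adjusted p = 3e-12). The leading H2A gene his-61 rose from 1781 to 1859 CPM in wild type to 3367 to 4060 CPM (log2 1.03, SE 0.0553), and its share of H2A counts went from 57.8% to 61.9% ± 0.267. H2A was the type in which the leading copy took a larger share in met-2 hpl-2, while the shares of the leading H2B, H3 and H4 copies went down. The genes his-3 and his-7 rose by 0.39 (SE 0.101) and 0.27 (SE 0.096). The call of his-7 (adjusted p = 0.0223) did not hold when wild-type replicate 2 or 3, or met-2 hpl-2 replicate 1 or 2, was left out, with adjusted p-values of 0.051 to 0.0714. It was also lost when scaled by library size alone (adjusted p = 0.113) and in DESeq2 (0.0501).

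The uncalled genes stood out by their structure. The H2A gene his-35 stood at 13.9, 13.3 and 12.9 CPM in wild type and 11.6 to 15.7 CPM in met-2 hpl-2, overlapping (log2 0.04, SE 0.129, adjusted p = 0.79, and of the opposite sign, -0.0442, when scaled by library size alone). The H4 gene his-37 stood at 35.1 to 46.5 CPM in wild type and 37.5 to 43.0 CPM in met-2 hpl-2, also overlapping (log2 -0.02, SE 0.0882, adjusted p = 0.875). With his-41 they form the cluster at chromosome V 9544659 to 9547607. These are the 3 tested genes with 2 annotated exons, and the other 22 have 1. The log2 differences of the 3 ran from -0.02 to 0.18, and those of the 22 from 0.27 to 3.88 with a median of 0.84. The values of his-37 and his-41 are uncertain, since nstp-10 lies opposite his-37 and C50F4.6 overlaps his-41 on the same strand. The sources used here do not give whether the counting used strand.

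**Figure D3:**
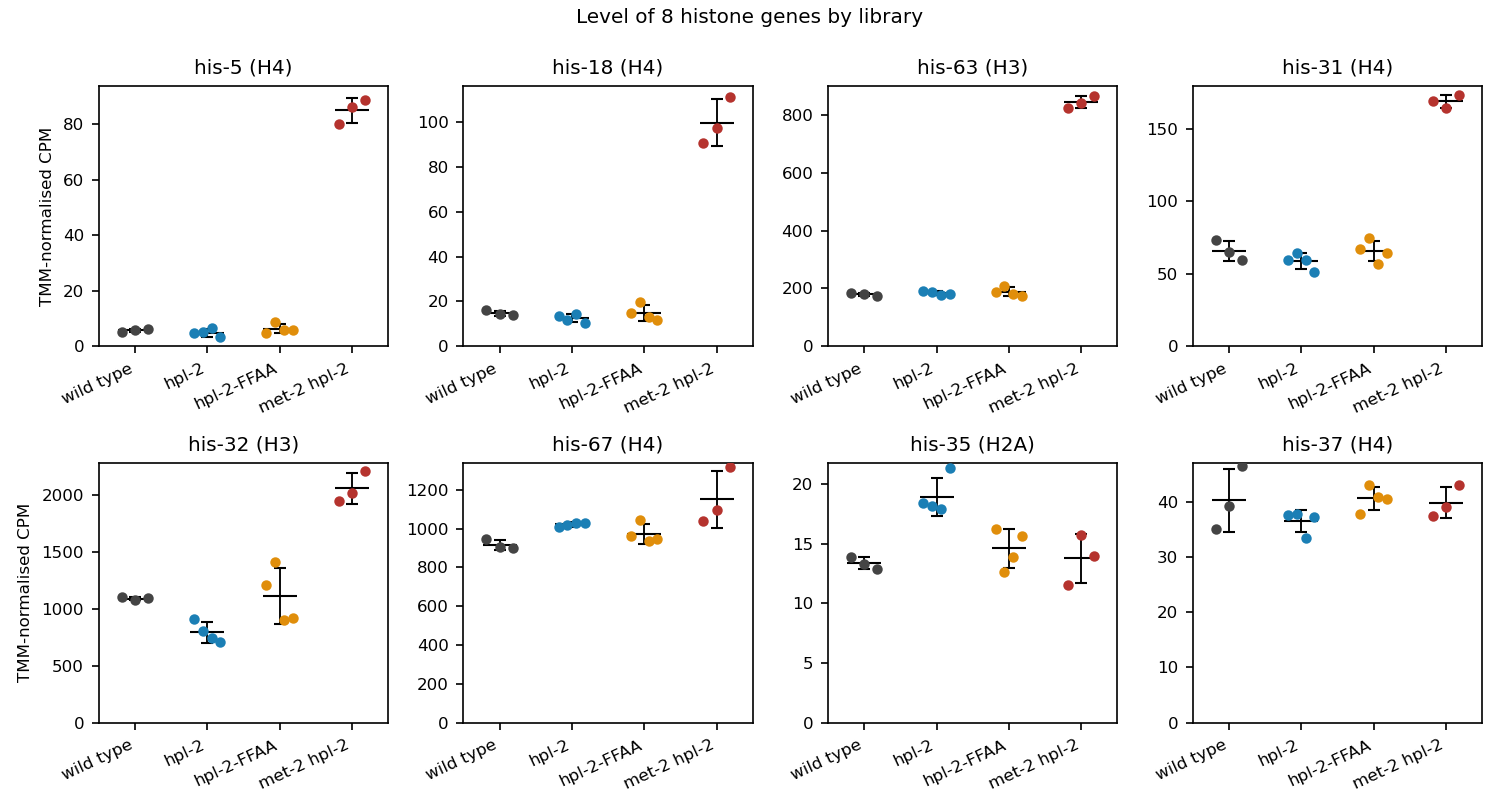
Level of 8 histone genes in each library, as TMM-normalised CPM on axes that start at 0, with 1 point per library and bars for the mean and SD of each genotype. For his-5, his-18, his-63 and his-31 only the met-2 hpl-2 libraries are high, the 4 hpl-2 libraries are lowest for his-32 apart from 1 that overlaps hpl-2-FFAA, and for his-37 the hpl-2-FFAA libraries lie just above those of hpl-2 while all other pairs of genotypes overlap.

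The log2 differences of genes that share an intergenic region lay close together in some pairs and far apart in others. The clusters hold 31 neighbouring pairs transcribed away from each other, at gaps of under 2000 bases. Both genes were tested in 11 of them, 1 gene in 2 and none in 18, with his-40 counted as untested. In the pair his-6 and his-5, separated by 236 bases, the H3 gene his-6 rose by 0.76 and the H4 gene his-5 by 3.88 on the log2 scale. In his-17 and his-18 the H3 gene rose by 1.44 and the H4 gene by 2.76. The order was the other way in his-63 and his-64, where the H3 gene rose by 2.23 and the H4 gene by 1.26. In the pair of leading copies, his-60 and his-59, the values were 0.63 and 0.55. In the pairs of H2A and H2B genes, his-4 rose more than his-3 (1.40 against 0.39), and his-61 more than his-62 (1.03 against 0.61). No test was made of a difference between partners.

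**Figure D4:**
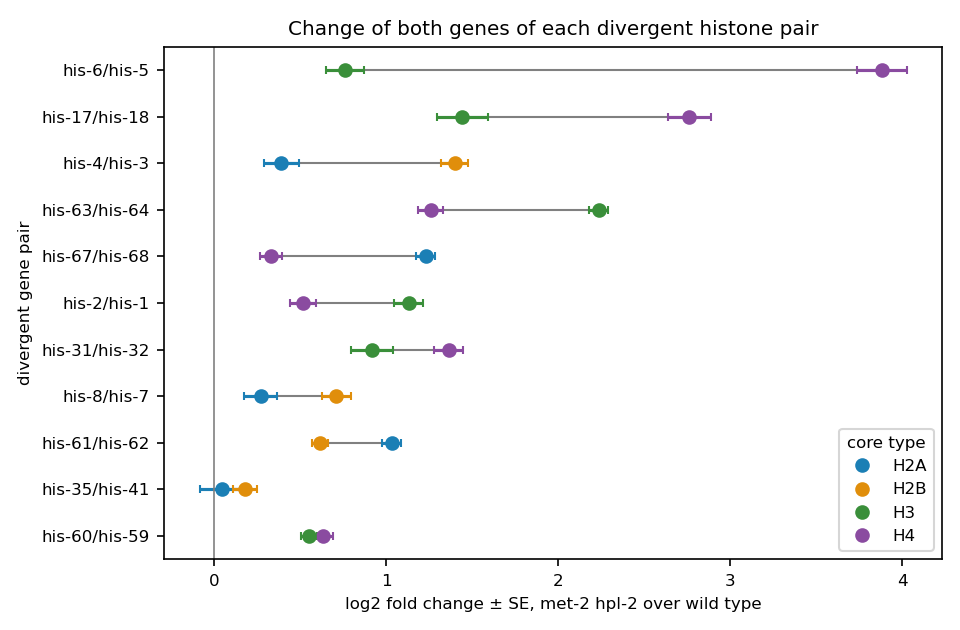
Log2 fold change, met-2 hpl-2 over wild type, with its SE, of both genes of the 11 divergent pairs with both genes tested, coloured by core type and ordered by the distance between partners. The distance runs from 0.0804 for his-60 and his-59 to 3.12 for his-6 and his-5.

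Summed histone transcripts were not called different from wild type in the hpl-2 mutant. The sum over all copies stood at 19716, 19487, 19091 and 18742 CPM in the hpl-2 mutant, just under the wild-type libraries (log2 -0.07, SE 0.0516, adjusted p = 0.297). The H3 sum came nearest to a call, at 6496 ± 230 CPM (n = 4) against 7102 ± 41.6 CPM (log2 -0.13, SE 0.0584, adjusted p = 0.085). It passed the threshold in a fit of these 2 groups alone (log2 -0.13, adjusted p = 0.000238), without hpl-2-FFAA replicate 2 (adjusted p = 0.015), and without the leading copy of each type (log2 -0.29, adjusted p = 0.0181). Of the 25 tested genes, 3 rose and 6 fell, where 20.2% of all tested genes rose, 21.6% fell and 41.8% changed in either direction. The called share of histone genes, 36.0%, is near that background.

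The gene that fell most in the hpl-2 mutant was the H3 gene his-32. It stood at 1105, 1071 and 1089 CPM in wild type and 911.7, 800.1, 744.9 and 705.4 CPM in the hpl-2 mutant, without overlap (log2 -0.46, SE 0.116, adjusted p = 0.00391). The H2A gene his-35 rose from 12.9 to 13.9 CPM up to 17.9 to 21.3 CPM, also without overlap (log2 0.50, SE 0.128, adjusted p = 0.00434). These 2 calls held under every alternative run. The others were smaller, from -0.31 for his-7 to 0.18 for his-68, with his-3, his-41, his-1 and his-60 also lower and his-67 also higher, and each was lost under at least 1 alternative. The number called was 3 without wild-type replicate 1, 5 without wild-type replicate 2 and 4 without wild-type replicate 3. It was 5 without hpl-2 replicate 2 or 3, and 3 without hpl-2 replicate 4. Over all genes the number called was 3260 of 9750, 3349 of 9748 and 3119 of 9690 without wild-type replicates 1, 2 and 3. Without hpl-2 replicates 2, 3 and 4 it was 3496 of 9450, 3394 of 9501 and 3345 of 9505. With all libraries it was 3968 of 9498. In the hpl-2 mutant the list of maternal markers summed to 8300 to 9490 CPM against 7120 to 7320 CPM in wild type, and that of early zygotic markers to 401 to 484 CPM against 607 to 638 CPM. Their part in these differences was not tested.

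In hpl-2-FFAA, 0 of the 25 genes were called against wild type, where 0.779% of all tested genes were. At an unadjusted p under 0.05 there was 1, his-68, against 933 of all 9498 tested genes, and DESeq2 also called 0. The sum over all copies stood at 21117, 22996, 19313 and 19504 CPM, so that replicates 1 and 2 lay above and replicates 3 and 4 below all wild-type libraries. The mean difference was small (log2 0.04, SE 0.0517, adjusted p = 0.885), and without replicate 2 its sign turned (log2 -0.0165). With replicates 3 and 4 alone 2 of the 26 histone genes tested were called against wild type, along with 820 of all 9715 genes then tested, a like share. The gene his-32 showed the split most plainly, at 1206 and 1410 CPM in replicates 1 and 2 and at 900.2 and 915.5 CPM in replicates 3 and 4.

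Set against the hpl-2 mutant, hpl-2-FFAA had 6 histone genes higher and 1 lower, while 18.7% of all tested genes were higher, 16.5% lower and 35.2% called in either direction. Higher were his-32 (log2 0.49, SE 0.108, adjusted p = 0.00225), his-3, his-6, his-1, his-2 and his-60, by 0.17 to 0.29, and his-35 was lower by -0.37 (SE 0.116, adjusted p = 0.0196). The call of his-35 was lost without hpl-2 replicate 4 (adjusted p = 0.0693) and without hpl-2-FFAA replicate 2 (0.0666). That of his-6 was lost in 7 alternatives, among them those without hpl-2 replicate 2, 3 or 4 and without hpl-2-FFAA replicate 1 or 2, with adjusted p-values of 0.0659 to 0.867. The call of his-3 was lost without hpl-2 replicate 3 or 4 or hpl-2-FFAA replicate 2, and that of his-2 without hpl-2 replicate 4. With replicates 3 and 4 of hpl-2-FFAA alone only his-32 of these 7 genes remained called (log2 0.199, adjusted p = 0.0335). Summed H3 was higher (log2 0.17, SE 0.0542, adjusted p = 0.0192). That call was lost without hpl-2 replicate 3 or 4 and without hpl-2-FFAA replicate 1 or 2 (adjusted p of 0.053 to 0.0644), and with replicates 3 and 4 of hpl-2-FFAA alone the difference was 0.0526. The number of histone genes called was 3 without hpl-2 replicate 4, 4 without hpl-2-FFAA replicate 2 and 11 without hpl-2-FFAA replicate 3. Over all genes 2573 of 9505, 2511 of 9493 and 3509 of 9506 were called, in the same order. With replicates 1 and 2 of hpl-2-FFAA alone the number of histone genes called was 12 of 27 tested, and with replicates 3 and 4 alone it was 1 of 26. The number over all genes moved with it, at 4073 of 9707 and 1482 of 9715.

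The met-2 hpl-2 strain carries the hpl-2 deletion too, so its comparison with the hpl-2 mutant asks what differed beyond that deletion. Here 23 of the 25 genes were higher and 1 lower, against 36.0% higher, 35.2% lower and 71.2% called of all tested genes. The median log2 difference was 0.77 over the 25 genes and 0.0146 over all tested genes. The lower gene was his-35 (log2 -0.46, SE 0.112, adjusted p = 0.00126), whose level in met-2 hpl-2 overlapped that in wild type. The sum over all copies was 1.81-fold higher (log2 0.86, SE 0.0513, adjusted p = 1.64e-10), with H2A at log2 0.97, H2B at 0.77, H3 at 0.90 and H4 at 0.80. The largest differences were again in his-5 (17.4-fold), his-18 (7.98-fold) and his-63 (4.59-fold). The call of his-67 (log2 0.17, adjusted p = 0.0135) was lost without met-2 hpl-2 replicate 3 (adjusted p = 0.199) and when scaled by library size alone (0.253). This comparison and that with wild type share the met-2 hpl-2 libraries.

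Genes that act with the core histones were read from 4 lists. Histone variants and linker histones, which replace core histones outside replication or bind between nucleosomes, had 13 tested of 17 found. In met-2 hpl-2 11 of them rose and 1 fell, where 28.7% of all tested genes rose and 29.4% fell. The linker histone gene his-24 stood at 2116 ± 73.3 CPM in wild type and 4278 ± 429 CPM in met-2 hpl-2 (log2 1.02, SE 0.131). In the hpl-2 mutant it stood at 1284 ± 165 CPM (n = 4, log2 -0.72, SE 0.122). The linker histone genes hil-3 (log2 1.13, SE 0.0913), hil-6 (log2 1.98, SE 0.168) and hil-5 (log2 0.66, SE 0.0616) also rose in met-2 hpl-2. In the hpl-2 mutant 4 rose and 4 fell, against 20.2% and 21.6% of all tested genes, with his-74, which encodes an H3.3-like variant, higher by 0.50 (SE 0.0503) and hil-5 by 0.53 (SE 0.0588). In hpl-2-FFAA, where 0.779% of all tested genes were called, hil-5 was the 1 gene called (log2 0.29, SE 0.0588, adjusted p = 0.0215).

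Transcripts of cdl-1, which encodes the stem-loop binding protein of histone mRNA, stood at 1007 ± 13.7 CPM in wild type and 1210 ± 55.7 CPM in met-2 hpl-2 (log2 0.26, SE 0.0404, adjusted p = 2.28e-05). In the hpl-2 mutant their level was 894.4 ± 20.9 CPM (n = 4, log2 -0.17, SE 0.0381, adjusted p = 0.00162) and in hpl-2-FFAA it was 982 ± 38.7 CPM (n = 4, adjusted p = 0.83). Over the 10 genes of histone mRNA processing, 2 rose and 4 fell in met-2 hpl-2, 3 rose and 5 fell in the hpl-2 mutant, and 0 were called in hpl-2-FFAA. Of all tested genes 28.7% rose and 29.4% fell in met-2 hpl-2, 20.2% rose and 21.6% fell in the hpl-2 mutant and 0.779% were called in hpl-2-FFAA. In met-2 hpl-2 the exonuclease gene eri-1 fell by 0.41 (SE 0.0589) and the helicase gene drh-3 by 0.36 (SE 0.0539) on the log2 scale. In the hpl-2 mutant ego-1, an RNA-dependent RNA polymerase gene, was higher (log2 0.43, SE 0.0705), and cpsf-3 (log2 -0.28, SE 0.0469), which encodes a subunit of the complex that cleaves pre-mRNA 3' ends, and the exonuclease gene xrn-2 (log2 -0.23, SE 0.0437) were lower.

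Histone chaperones, which carry histones to and from DNA, moved in both directions. Of 14 tested, 4 rose and 5 fell in met-2 hpl-2, 4 rose and 1 fell in the hpl-2 mutant, and 0 were called in hpl-2-FFAA. The counts in met-2 hpl-2 lie near the shares of all tested genes, 28.7% higher and 29.4% lower, and those shares were 20.2% and 21.6% in the hpl-2 mutant and 0.779% called in hpl-2-FFAA. In met-2 hpl-2 nap-1, a nucleosome assembly factor (log2 0.36, SE 0.0399), and spt-16, a subunit of FACT (log2 0.24, SE 0.0339), rose, while chaf-1, a subunit of the replication-coupled assembly factor CAF-1, fell (log2 -0.24, SE 0.045). In the hpl-2 mutant xnp-1, the ATRX homologue, was lower (log2 -0.34, SE 0.0481), and nasp-1 (log2 0.20, SE 0.0462) and hmg-3, another FACT gene (log2 0.18, SE 0.0463), were higher.

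More genes of DNA replication fell than rose in met-2 hpl-2. Of 36 tested, 8 rose and 20 fell, against 28.7% and 29.4% of all tested genes, with a median log2 difference of -0.15, and their summed level was 14400 to 14500 CPM in wild type and 14600 to 15000 CPM in met-2 hpl-2. The sliding clamp gene pcn-1 (log2 0.31, SE 0.034) and the ribonucleotide reductase gene rnr-1 (log2 0.29, SE 0.0307) rose. The GINS subunit gene psf-1 fell from 29.8 ± 1.82 to 15.5 ± 1.02 CPM (log2 -0.94, SE 0.0821). In the hpl-2 mutant 6 rose and 8 fell, where 20.2% and 21.6% of all tested genes did, among them psf-1 (log2 0.38, SE 0.0758), rnr-2, the small subunit of ribonucleotide reductase (log2 -0.22, SE 0.0383), and the DNA ligase gene lig-1 (log2 -0.19, SE 0.0351). In hpl-2-FFAA 0 of the 36 were called, against 0.779% of all tested genes.

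Against the hpl-2 mutant, the same lists in met-2 hpl-2 had 10 variants and linkers higher and 1 lower, 4 processing genes higher and 5 lower, 4 chaperones higher and 5 lower, and 9 replication genes higher and 19 lower. Of all tested genes 36.0% were higher and 35.2% lower. Among variants and linkers his-24 (log2 1.74, SE 0.122), hil-3 (log2 1.26, SE 0.084) and hil-2 (log2 1.26, SE 0.0913) were higher. The gene cdl-1 was higher too (log2 0.44, SE 0.0376), and eri-1 (log2 -0.57, SE 0.0542) and drh-3 (log2 -0.45, SE 0.0501) were lower. Of chaperones and replication genes, nap-1 (log2 0.36), spt-16 (log2 0.29) and the helicase subunit gene mcm-7 (log2 0.37) were higher, and chaf-1 (log2 -0.39), psf-1 (log2 -1.31) and psf-3 (log2 -0.68), another GINS subunit gene, were lower.

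In hpl-2-FFAA against the hpl-2 mutant, where 18.7% of all tested genes were higher and 16.5% lower, 5 variants and linkers were higher and 2 lower, with his-24 higher (log2 0.68, SE 0.114) and his-74 (log2 -0.32, SE 0.0459) and hil-5 (log2 -0.24, SE 0.0537) lower. The processing genes had 4 higher, among them xrn-2 (log2 0.25) and cpsf-3 (log2 0.20), and 2 lower, among them ego-1 (log2 -0.33), while cdl-1 was higher by 0.13 (SE 0.0354). Of the chaperones xnp-1 was higher (log2 0.23), and 6 were lower, among them hmg-3 (log2 -0.23) and nasp-1 (log2 -0.17). Of the replication genes 5 were higher and 6 lower, with the clamp loader genes rfc-3 (log2 -0.22) and rfc-1 (log2 -0.17) and psf-3 (log2 -0.25) among the lower.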

How the data were processed

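The authors deposited counts, whole numbers for each gene in 14 libraries, and their values show no normalisation. The submitters' processing notes name Trimmomatic 0.39 and the build ce10. The sources used here do not give the aligner, the counting program, its annotation or its use of strand. Histone genes were matched through their sequence names to RefSeq symbols on WBcel235, and positions are of that assembly.

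The test was run in edgeR 4.0.16 with R 4.3.3 (low-count filter, TMM scaling, quasi-likelihood test, 1 fit of 4 groups over 14 libraries), and the filter kept 9498 genes. Calls were made where the Benjamini-Hochberg adjusted p over all these genes was under 0.05. For sums, the histone rows were replaced by 1 row per core type, or by 1 row in all, and the whole table was fitted again. The standard error (SE) is the size of the log2 fold change over the square root of F. The fit was tested on simulated data. Alternatives were other scalings, other filters, DESeq2 1.42.0, a replicate block, fits of the groups compared alone, hpl-2-FFAA replicates 1 and 2 or 3 and 4 alone, and leaving out each library. Replicate numbers were not taken to pair the samples. All pairs of replicates differed beyond sampling noise, but to unequal degrees. The chi-square per degree of freedom, about 1 under sampling noise alone, ran from 1.11 to 8.51, both in hpl-2-FFAA. In wild type it was 1.17 to 1.28, near that of sampling noise. Nothing in the labels tells whether replicates came from separate cultures, so the spread behind the p-values may be technical.

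The text names every called histone gene, the 2 highest per core type by CPM per kb and every copy at 0. From each other list it names cdl-1 and up to 3 called genes of smallest adjusted p per comparison. The members and lists were chosen with earlier results of these data known.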

Additional observations from a re-analysis of the deposited data

Results flagged for a closer look

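In the 4 hpl-2 libraries, 3 values lay far from the other 3 of their group. The H2B gene his-4 stood at 541 CPM in hpl-2 replicate 4 and at 593 to 600 CPM in the others. The H2A gene his-35 stood at 21.3 CPM in the same library and at 17.9 to 18.5 CPM in the others. Summed H4 stood at 5340 CPM in hpl-2 replicate 2 and at 5160 to 5190 CPM in the others. In all, 58 groups of 4 libraries were examined in this way, and chance marks about 1 in 20 of such groups.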

How the results depend on the processing

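In both comparisons of met-2 hpl-2, the summed types and the sum of all copies kept their direction and call under every alternative run, and the number of called genes stayed within 1.5 times. Values are log2 differences unless they count genes. Without the leading copies, an alternative chosen after seeing the data, summed H2B went from 0.738 to 1.13 against wild type and from 0.769 to 1.18 against the hpl-2 mutant, and H3 in the latter from 0.901 to 1.43. In the other comparisons the following changed, and the cause was not tested.

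For the hpl-2 mutant against wild type, 9 genes were called, 4 with a replicate block, and 3 to 11 when 1 library was left out. Over all genes 3968 of 9498 were called, and 3453 of 9498 with the block. The block changed no other count of histone genes by over 1.5 times and no call of a sum. Same-numbered samples did not deviate together in every pair of any comparison, but did in part for hpl-2-FFAA and hpl-2 (r = 0.503, 0.0374, 0.298 and 0.545 for replicates 1 to 4, across genes). The H3 sum (-0.129) became called without the leading copies (-0.292), with no low-count filter (-0.136), with only the groups compared (-0.132) and with hpl-2-FFAA replicates 1 and 2 alone (-0.130) or 3 and 4 alone (-0.135). It ran from -0.149 to -0.109 with 1 library left out. Summed H4 turned to 0.0418 without the leading copies. The sum of all copies became called with no filter (-0.0770) and with only the groups compared (-0.0730). The gene his-38 ran from -0.00414 (without wild-type replicate 3) to 0.0242.

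For hpl-2-FFAA against wild type, its replicates 3 and 4 alone gave 2 called genes and sums of -0.0618 (H2A), -0.0411 (H2B), -0.0828 (H3), -0.0559 (H4) and -0.0630 (all). With 1 library left out these ran from -0.0234 to 0.0571, -0.0125 to 0.0430, -0.0237 to 0.0851, -0.00617 to 0.0820 and -0.0165 to 0.0694, and the lowest were those without replicate 2.

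For hpl-2-FFAA against the hpl-2 mutant, 7 genes were called, 11 with no filter, 12 with replicates 1 and 2 alone, 1 with replicates 3 and 4 alone, and 3 to 11 with 1 library left out. Over all genes 3345 of 9498 were called, and 3184 of 18587 with no filter. Summed H3 lost its call with only the groups compared (0.176) and with replicates 3 and 4 alone (0.0526), and ran from 0.105 to 0.214 with 1 library left out. With replicates 1 and 2 alone, H2A (0.148), H4 (0.180) and the sum of all (0.196) became called. With replicates 3 and 4 alone, H2A (-0.0158), H2B (-0.00339) and H4 (-0.00571) turned. With no filter, H4 (0.0912) and the sum of all (0.108) became called, and the sum of all ran from 0.0532 to 0.139 with 1 library left out.

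In met-2 hpl-2 against wild type, his-35 turned to -0.0442 when scaled by library size alone and ran from -0.0642 (without met-2 hpl-2 replicate 2) to 0.151 with 1 library left out. Depth limits the copies with few reads, and in the first 3 groups 3 counts correspond to 0.462 to 0.558 CPM.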
